A study of Drosophila melanogaster with 6 samples.

Results

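Small RNA silencing genes of Drosophila melanogaster, 38 of the 17714 genes in the deposited tables, were followed in 3 wild-type (WT) and 3 ko (KO) libraries of poly(A) RNA from Kc cells. They were chosen by their known roles in the PIWI-interacting RNA (piRNA), small interfering RNA (siRNA) and microRNA (miRNA) pathways, and all 38 were found by symbol. Kc is an established embryonic line with traits of plasmatocytes, the macrophage-like blood cells of the fly. The series concerns CG14906 (mettl4), which its title links to m6A methylation of U2 snRNA, a spliceosomal RNA. Both groups are cultured Kc cells and no treatment, time or further allele is given for either. The labels do not give the type of lesion in the ko cells, whether they are 1 clone, or whether a group's libraries are separate cultures. The p-values therefore rest on the scatter among these 6 libraries, part of which may be technical. Titles in the ko group begin with OE although the source and genotype fields read ko, and the name KO follows the latter.

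piRNAs guide PIWI proteins to transposon RNA in the fly gonad. In the germline, the Rhino-Deadlock-Cutoff complex lets both strands of piRNA clusters be transcribed, the nuclease Zucchini cuts precursors at the mitochondrial surface, and Aubergine and AGO3 amplify piRNAs in the perinuclear nuage by the ping-pong cycle. Nuclear Piwi recruits the Panoramix complex and a histone H3K9 methyltransferase to silence transcription. The siRNA and miRNA pathways, by contrast, operate in most somatic cells, with Dicer-2 and AGO2 serving siRNAs and Dicer-1 and AGO1 serving miRNAs.

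Expected counts per library ranged from 9963557 to 18906951. CG14906 RNA had a normalised read count (CPM) of 18.5 ± 1.91 in WT against 19.7 ± 1.02 in KO (SD, n = 3 in each group here and below; edgeR adjusted p = 0.435), so its RNA level does not check the ko label, and every direction below is that of the libraries labelled KO. Nuclear ribosomal RNA took 3.98% of the counts in WT replicate 1 and 4.11% in KO replicate 1, against 0.171% to 1.83% in the others, and replicate 1 of each group also stood furthest from its own group over all genes. WT replicates 2 and 3 lay closer together than any other pair of one group, with a chi-square per gene of 1.65, where KO replicates 2 and 3 had 2.88 and the rest at least 18.6. A value of 1.65 is above sampling noise, so both were kept. Of the 14 plasmatocyte markers listed, 13 were tested, and 8 were higher and 3 lower in KO. Over all genes tested, 27.7% were higher and 26.5% lower at an adjusted p under 0.05. The summed level of the markers was 5151 to 7392 CPM in WT and 8461 to 12708 CPM in KO. Their changes of at least 2-fold were 6 rises and 1 fall, that of eater, beside 9.17% and 3.78% of all genes tested. The scavenger receptor gene eater fell from 149.95 ± 3.99 to 35.1 ± 2.42 CPM, while the matrix genes Glt, Ppn and Pxn rose from 14.8 ± 1.56, 16.7 ± 2.06 and 34.7 ± 13.1 CPM to 748 ± 8.503, 718 ± 230 and 615 ± 264 CPM. Smaller differences were those of the haemocyte GATA factor gene srp, at 355 ± 15.2 and 402 ± 16.3 CPM (called higher), and of Hml, at 4174 ± 700 and 4494 ± 719 CPM (not called). The part of these markers in the results below was not tested.

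Of the 38 genes, 37 were expressed well enough to be tested, and 27 of these were called, 13 higher and 14 lower in KO. A call is a Benjamini-Hochberg adjusted p under 0.05 in edgeR's quasi-likelihood test over all 8405 genes tested. Among all genes tested 54.1% were called, 27.7% higher and 26.5% lower, against 73.0% of the 37, so calls are the common state in this comparison. The median log2 fold change of the 37 was 0.02, beside 0.01 over all genes tested, and the median absolute log2 fold change was 0.38 beside 0.33. Changes of at least 2-fold were 5 rises (rhi, tej, qin, krimp and zuc) and 1 fall (del), where 9.17% of all tested genes rose and 3.78% fell by that much. All 37 lay above the count limit (0.732 CPM) in every library, so none was tested only by virtue of the group in which it is high. WT and KO values were fully separated for 29 of the 37 genes and for 63.3% of all tested genes. In bulk RNA, a change in the share of cells that express a gene and a change in RNA per cell cannot be told apart.

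**Figure D1:**
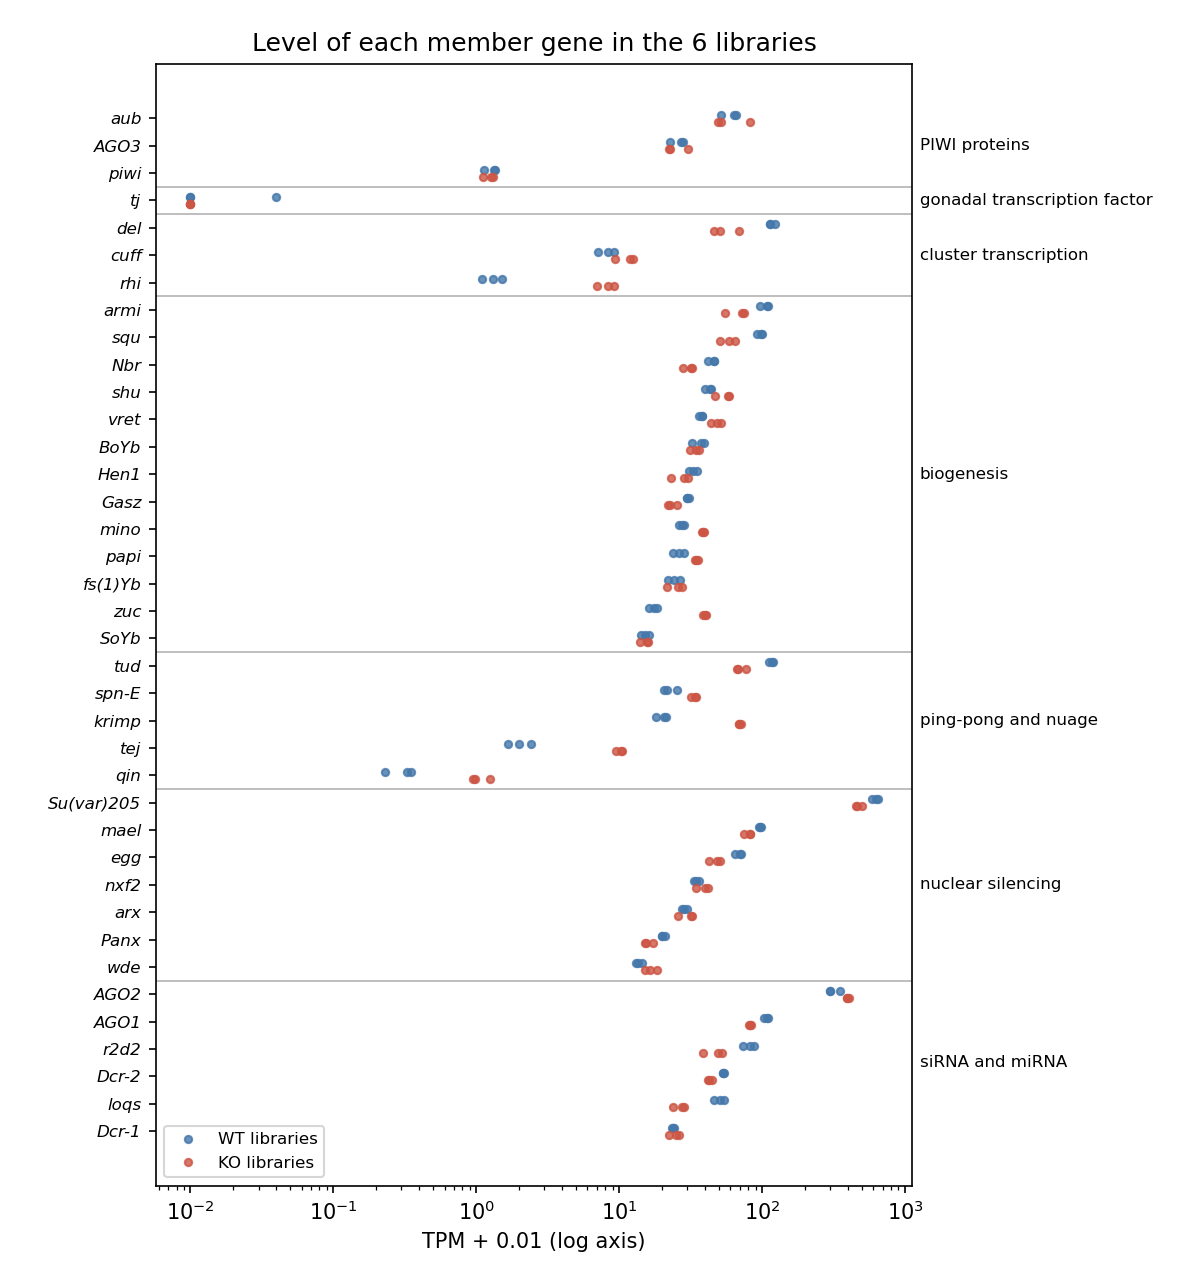
TPM of each of the 38 genes in the 6 libraries (log axis, 0.01 added so that zeros can be drawn; blue, WT; red, KO), grouped by role and ordered by the WT mean. The HP1a gene and AGO2 stand highest, piwi and qin lie near 1 TPM or below, and tj is at 0 in all but 1 library.

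Levels per transcript length, as TPM, spanned the range from none to several times the median gene. The highest WT mean was that of the gene for heterochromatin protein HP1a, plotted under its Su(var) symbol, at 620.0 ± 29.2 TPM, followed by the siRNA effector AGO2 at 315 ± 29.8 TPM. A group of del, tud, AGO1 and armi followed at 117 ± 5.51, 116 ± 4.48, 107 ± 3.34 and 105 ± 7.18 TPM. In that order del and tud, and AGO1 and armi, differed by less than 1 SD. Of the 38, 19 exceeded the WT median of all tested genes (32.8 TPM) and 21 exceeded that of KO (31.2 TPM). Among the tested genes 5 (piwi, rhi, cuff, tej and qin) had a mean under 10 TPM over the 6 libraries. Of these 5, 4 were called higher and 0 lower, while among all 2003 tested genes under the same limit 34.0% were called higher and 13.2% lower. The limit of 10 TPM was chosen after the values were seen. Among the 32 tested members at or above it, 9 were called higher and 14 lower.

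The PIWI proteins were expressed unequally and none was called. aub, encoding the cytoplasmic PIWI protein that binds piRNAs antisense to transposons, had 51.4, 65.5 and 63.4 TPM in WT replicates 1 to 3 and 82.6, 49.5 and 51.5 TPM in KO replicates 1 to 3. AGO3, its ping-pong partner, had 22.7, 28.0 and 26.9 TPM in WT and 30.1, 22.3 and 22.7 TPM in KO. piwi, encoding the nuclear effector, had only 1.33, 1.13 and 1.35 TPM in WT and 1.3, 1.26 and 1.1 TPM in KO. For all 3 genes the groups overlapped. piwi shares 191 of its 3073 exonic bases with SCAR on the opposite strand, and strand use in counting is not stated.

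The fitted log2 fold changes (KO over WT) were 0.06 for aub (95% interval -0.44 to 0.55, adjusted p = 0.832), -0.01 for AGO3 (-0.35 to 0.33, 0.940) and -0.03 for piwi (-0.56 to 0.51, 0.935), intervals that leave room for changes of either direction. KO replicate 1 held the highest aub and AGO3 values of all 6 libraries, and WT replicate 1 the lowest of the WT libraries. Within the same replicate number, the log2 CPM ratio of aub was 0.73 for number 1 but -0.37 and -0.31 for numbers 2 and 3, and that of AGO3 was 0.45 against -0.29 and -0.25. Without both number-1 libraries aub and AGO3 were each called lower in KO, with log2 fold changes of -0.35 (adjusted p = 2.85e-05) and -0.27 (adjusted p = 0.00104). The part of ribosomal RNA content, which is high in both number-1 libraries, in this split was not tested. The ratio of AGO3 to aub TPM within a library was 0.431 ± 0.00890 in WT and 0.419 ± 0.0469 in KO, and the difference was not called (exact permutation test over the 6 libraries, two-sided, p = 0.90, smallest possible 0.10).

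The gonadal transcription factor gene tj, whose Maf protein activates piwi in somatic cells of the ovary, had 1 count in WT replicate 1 and 0 counts in each of the other 5 libraries. Both groups lie under a floor of 3 counts, so no fold is given.

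**Figure D2:**
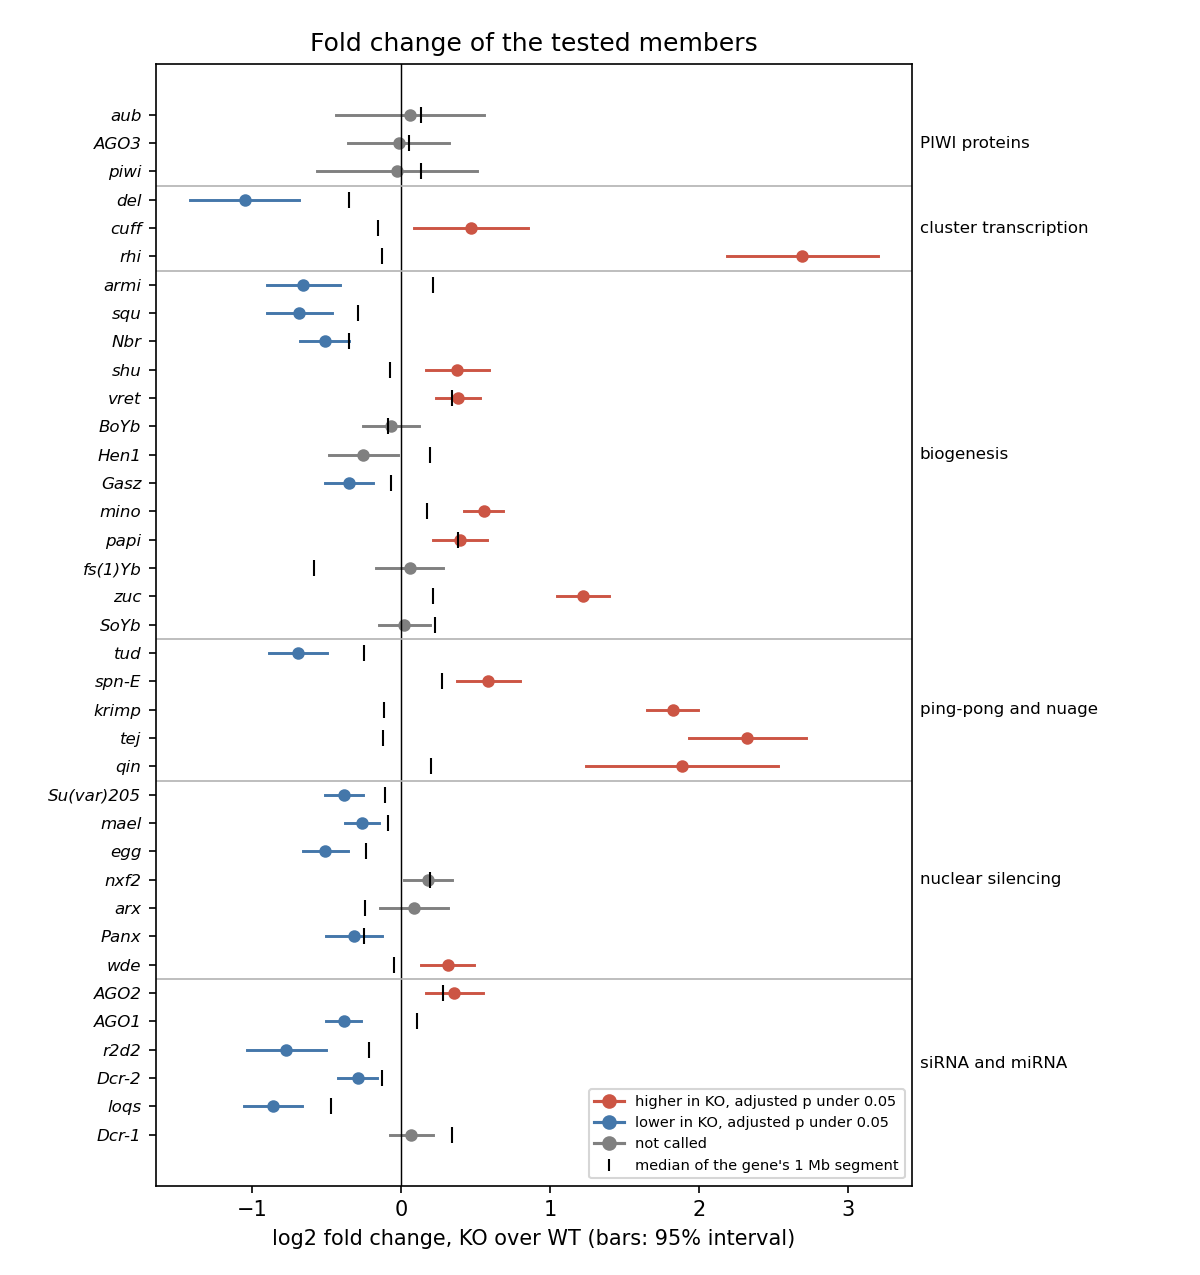
Fitted log2 fold change (KO over WT) of the 37 tested genes with 95% intervals, coloured by call (red, higher; blue, lower; grey, not called), with the median of all tested genes in the same 1 Mb segment as a black tick. The 5 largest rises lie at 1.22 to 2.69, far from their segment medians, while vret, papi, nxf2 and AGO2 lie near theirs. The tick of AGO3 is the median of arm 3L, as its segment held too few tested genes.

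Among the 3 genes of the cluster transcription complex, rhi and cuff were higher and del was lower in KO. rhi encodes Rhino, an HP1 paralogue that marks piRNA clusters on chromatin, and maps to chr2R:17628491-17633516 (dm6, minus strand). It had 1.09, 1.496 and 1.31 CPM in the WT libraries and 7.29, 9.43 and 8.33 CPM in KO, so every KO library was above every WT library. The log2 fold change was 2.69 (SE 0.22, adjusted p = 8.67e-05), the largest of the set, from 58 counts over the WT libraries and 320 over the KO libraries. In TPM this is a move from 1.297 ± 0.21 to 8.21 ± 1.14.

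del encodes Deadlock, which joins Rhino to the rest of the complex, and maps to chr2L:21145137-21148546 (minus strand). Its libraries had 259, 235 and 236 CPM in the WT libraries and 150.2, 97.8 and 104 CPM in KO, with no overlap. The log2 fold change was -1.05 (SE 0.15, adjusted p = 0.00121). Its 1 Mb segment had a median of -0.35. With segment medians as an offset in the edgeR fit del was still called lower, but by less than 2-fold (log2 fold change -0.70, adjusted p = 0.00913). cuff encodes Cutoff, which protects cluster transcripts from termination, and was weakly expressed, at 5.89, 6.78 and 7.44 CPM in the WT libraries and 7.93, 10.4 and 9.54 CPM in KO (log2 fold change 0.47, adjusted p = 0.0418). The cuff call was lost in 8 of the 16 other settings, among them leaving out any WT replicate, KO replicate 2 or KO replicate 3. Even after the changes, the KO level of del (55.3 ± 12.3 TPM) stayed above those of cuff (11.3 ± 1.69 TPM) and rhi.

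Nuage and ping-pong genes held 3 of the 5 rises of at least 2-fold as well as a fall. Of 5 genes, 4 were higher and 1 lower, with a median log2 fold change of 1.82. Over all genes tested 27.7% were called higher and 26.5% lower. tej encodes the Tudor protein Tejas of the nuage and maps to chr2R:14300103-14302353 (minus strand). It had 3.03, 2.09 and 2.46 CPM in the WT libraries and 12.4, 13.4 and 12.7 CPM in KO, a log2 fold change of 2.32 (SE 0.17, adjusted p = 5.75e-05). krimp, at chr2R:16238103-16240722 (minus strand), encodes Krimper, a Tudor protein that brings AGO3 to Aubergine. It had 30.5, 34.5 and 35.4 CPM in the WT libraries and 123, 117 and 114 CPM in KO, and its log2 fold change of 1.82 (SE 0.07) had the lowest adjusted p of the set (5.36e-06).

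qin, a Tudor and RING finger protein gene that favours ping-pong between Aubergine and AGO3 over Aubergine alone, lies at chr3R:18591027-18650137 (plus strand). It rose from 1.396, 1.296 and 0.890 CPM in WT to 4.15, 5.18 and 3.82 CPM in KO (log2 fold change 1.88, SE 0.27, adjusted p = 0.00114), a low level of 1.05 ± 0.165 TPM in KO. The helicase gene spn-E rose from 70.6 ± 8.74 to 106 ± 4.15 CPM (log2 fold change 0.59, adjusted p = 0.00148). tud, the founding Tudor gene and the highest of this role in WT by TPM, had 707, 709 and 659.6 CPM in the WT libraries and 480.1, 406 and 399.8 CPM in KO. Its log2 fold change was -0.69 (SE 0.08, adjusted p = 0.000474), and krimp and tud thus came to 69.7 ± 1.15 and 70.8 ± 5.82 TPM in KO from 20.04 ± 1.69 and 116 ± 4.48 TPM in WT.

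**Figure D3:**
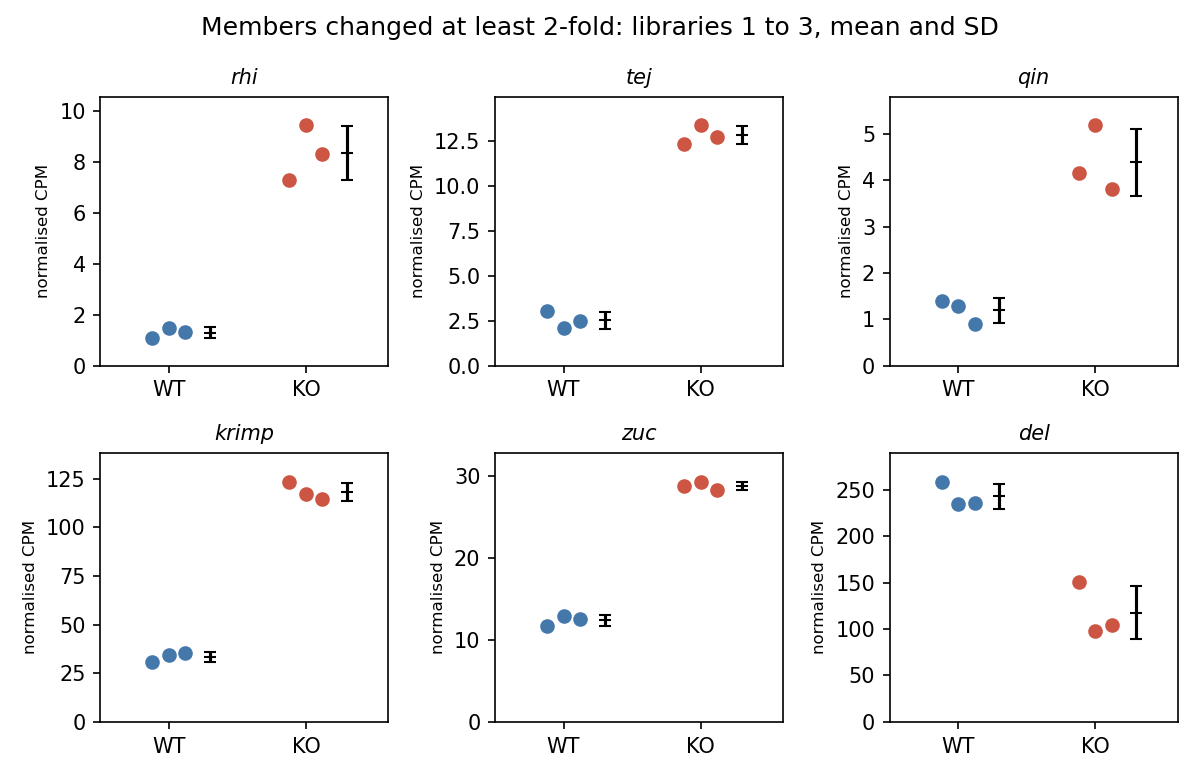
Normalised CPM in each library (points, replicates 1 to 3 from left to right; blue, WT; red, KO) with the mean and SD (black) for the 6 genes changed at least 2-fold. No KO value of rhi, tej, qin, krimp or zuc falls as low as a WT value, and no KO value of del reaches 235 CPM, the lowest WT value.

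Biogenesis genes moved in both directions, 5 higher and 4 lower of 13, with 4 not called. The shares over all genes tested were 27.7% higher and 26.5% lower. zuc, encoding the mitochondrial endonuclease that sets piRNA ends, maps to chr2L:11988735-11989882 (minus strand). It had 11.7, 12.96 and 12.5 CPM in the WT libraries and 28.8, 29.3 and 28.3 CPM in KO, a log2 fold change of 1.22 (SE 0.07, adjusted p = 3.37e-05). zuc shares 67 of its 1148 exonic bases with CG34163 on the opposite strand, and strand use in counting is not stated. Other rises in this role were smaller. mino, a mitochondrial glycerol-3-phosphate acyltransferase gene, rose from 53.0 ± 2.29 to 78.0 ± 0.768 CPM (log2 fold change 0.56, adjusted p = 0.000218). It shares exonic bases with 3 genes on the opposite strand, of which an antisense RNA covers 1452 bases.

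The co-chaperone gene shu rose from 46.0 ± 2.33 to 59.8 ± 6.13 CPM (log2 fold change 0.38). The Tudor gene vret rose from 56.7 ± 1.74 to 74.0 ± 4.10 CPM (0.38), and papi, encoding the Tudor-KH protein of the mitochondrial surface, from 39.7 ± 3.26 to 52.4 ± 0.448 CPM (0.40). The last 2 rises were close to the medians of all tested genes in their own 1 Mb segments (0.34 for vret and 0.38 for papi), and with segment medians as an offset neither was called (log2 fold changes 0.04 and 0.02, adjusted p = 0.615 and 0.880).

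Falls in biogenesis were led by squ and armi. armi, the helicase gene Armitage and the highest of its role in WT by TPM, had 268, 299 and 297 CPM in the WT libraries and 154, 197 and 198 CPM in KO (log2 fold change -0.65, SE 0.10, adjusted p = 0.00172), while its 1 Mb segment had a median of 0.22. The annotation puts CG46463 on the same strand over 4145 of the 4162 exonic bases of armi, so the value cannot be assigned to armi alone. squ, encoding the nuage protein Squash, fell from 64.7 ± 2.13 to 40.4 ± 4.92 CPM (log2 fold change -0.68, adjusted p = 0.000897). It shares 223 of 1372 exonic bases with grp on the same strand. Nbr, the exonuclease gene Nibbler whose product trims 3' ends of small RNAs, fell from 68.0 ± 3.36 to 47.7 ± 2.89 CPM (log2 fold change -0.51), and Gasz, a mitochondrial membrane scaffold gene, from 37.3 ± 0.568 to 29.3 ± 1.47 CPM (-0.35). Nbr was not called with its segment median of -0.35 as an offset (log2 fold change -0.16, adjusted p = 0.1004).

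The genes of the Yb family of Tudor-domain helicases were not called. BoYb stood at 85.3 ± 7.82 CPM in the WT libraries and 81.4 ± 4.11 CPM in KO, SoYb at 49.5 ± 2.90 and 50.2 ± 2.56 CPM, and fs(1)Yb, whose product defines Yb bodies in the ovarian soma, at 56.6 ± 4.93 and 58.9 ± 5.77 CPM. The 95% intervals of their log2 fold changes were -0.25 to 0.12, -0.15 to 0.19 and -0.17 to 0.29. fs(1)Yb lies on X in a segment with a median of -0.59, and relative to it the gene was called higher (log2 fold change 0.65, adjusted p = 0.00170). Hen1, whose methyltransferase protects piRNA and siRNA 3' ends, stood at 33.1 ± 1.95 CPM in the WT libraries and 27.8 ± 3.06 CPM in KO with no overlap (log2 fold change -0.25, adjusted p = 0.0633). With the replicate number as a block Hen1 was called lower (adjusted p = 0.0262), as it was with segment medians as an offset (log2 fold change -0.45, adjusted p = 0.00930).

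Of the 7 nuclear silencing genes 4 were lower, 1 was higher and 2 were not called. Over all genes tested 26.5% were called lower and 27.7% higher. The HP1a gene had 367, 398 and 389 CPM in the WT libraries and 293, 287 and 305 CPM in KO, without overlap, and its log2 fold change was -0.38 (SE 0.06, adjusted p = 0.00107). egg, encoding the H3K9 methyltransferase Eggless, fell from 179 ± 7.61 to 126 ± 8.35 CPM (log2 fold change -0.51, adjusted p = 0.000585), and it shares 629 exonic bases with an antisense RNA. mael, an HMG-box gene acting downstream of Piwi, fell from 114 ± 0.771 to 95.1 ± 3.42 CPM (-0.26), and Panx, encoding Panoramix, from 26.1 ± 0.639 to 21.0 ± 1.62 CPM (-0.32, adjusted p = 0.0124). The fall of Panx was not called relative to its segment median of -0.24 (log2 fold change -0.07, adjusted p = 0.501).

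wde, encoding the Eggless cofactor Windei, rose from 43.6 ± 2.14 to 54.1 ± 3.68 CPM (log2 fold change 0.31, adjusted p = 0.0108), opposite to egg. That call was lost without WT replicate 3 (adjusted p = 0.0541) and on both TPM scales. nxf2, the partner of Panoramix, stood at 63.4 ± 2.19 CPM in the WT libraries and 71.9 ± 4.99 CPM in KO (adjusted p = 0.0579, and 0.0343 with the replicate number as a block). arx, encoding the Piwi cofactor Asterix, stood at 15.4 ± 0.508 and 16.4 ± 1.59 CPM (log2 fold change 0.09, 95% interval -0.14 to 0.32, adjusted p = 0.467). Relative to its segment median of -0.24, arx was called higher (log2 fold change 0.33, adjusted p = 0.0280).

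**Figure D4:**
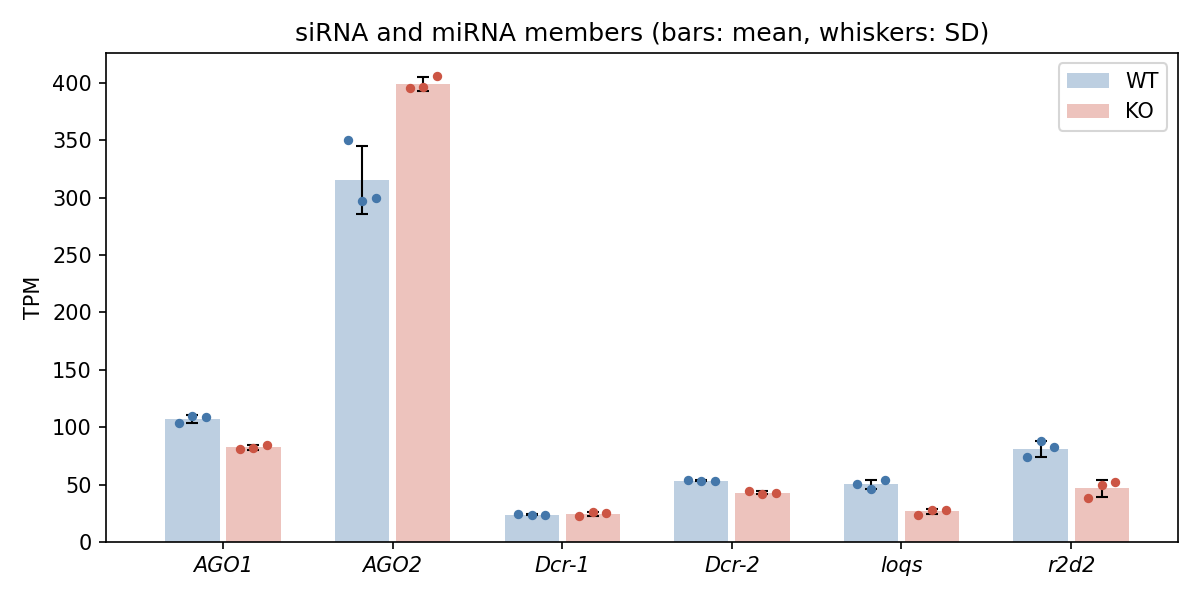
TPM of the 6 siRNA and miRNA genes (points, single libraries; bars, mean; whiskers, SD; n = 3; blue, WT; red, KO). AGO2 is the highest in both groups and higher in KO, Dcr-1 overlaps between groups, and AGO1, Dcr-2, loqs and r2d2 are lower in KO.

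Of the 6 siRNA and miRNA genes 4 were lower, 1 was higher and 1 was not called, with a median log2 fold change of -0.34. Over all genes tested 26.5% were called lower and 27.7% higher. AGO2, the siRNA effector gene, had 349.7, 297 and 299 TPM in WT and 395, 396 and 406 TPM in KO (log2 fold change of the counts 0.36, SE 0.08, adjusted p = 0.00795). Its segment had a median of 0.29, and relative to that median AGO2 was not called (log2 fold change 0.07, adjusted p = 0.499). AGO1, the miRNA effector gene, had 104, 110.02 and 108 TPM in WT and 80.7, 81.8 and 84.3 TPM in KO (log2 fold change -0.39, SE 0.05, adjusted p = 0.000653). The ratio of AGO1 to AGO2 TPM within a library was 0.343 ± 0.0406 in WT and 0.206 ± 0.00183 in KO, with no overlap. Every KO library had less AGO1 and more AGO2 TPM than any WT library. The ratios therefore had to separate, and the test below adds nothing to the values of the 2 genes. The exact permutation test, two-sided, gave p = 0.10, the smallest that 3 libraries against 3 allow (adjusted p = 0.20 over the 4 ratios tested).

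Dcr-1, the miRNA dicer gene, had 24.1, 23.3 and 23.6 TPM in WT and 22.3, 26.1 and 25.1 TPM in KO, overlapping groups that were not called (log2 fold change 0.07, 95% interval -0.07 to 0.21). Relative to its segment median of 0.34 the direction turned and Dcr-1 was called lower (log2 fold change -0.27, adjusted p = 0.00997). Dcr-2, the siRNA dicer gene, had 54.0, 53.3 and 53.0 TPM in WT and 44.7, 41.6 and 42.7 TPM in KO (log2 fold change -0.29, SE 0.06, adjusted p = 0.00376). The Dcr-1 to Dcr-2 ratio was 0.443 ± 0.00462 in WT and 0.571 ± 0.0653 in KO, again without overlap (exact permutation p = 0.10).

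The double-stranded RNA binding partners of the dicers fell furthest in this role. loqs, whose isoforms serve Dicer-1 or Dicer-2, had 50.7, 46.1 and 54.2 TPM in WT and 23.9, 28.2 and 27.6 TPM in KO (log2 fold change -0.86, SE 0.08, adjusted p = 0.000189), in a segment with a median of -0.47. r2d2, the Dicer-2 partner in loading AGO2, had 73.5, 87.6 and 82.4 TPM in WT and 38.3, 49.3 and 52.3 TPM in KO (log2 fold change -0.77, SE 0.11, adjusted p = 0.00114). It shares 431 of its 1879 exonic bases with Cdc14 on the opposite strand, and loqs 420 of 2290 with an antisense RNA. Both fell together, and their ratio was 0.624 ± 0.0859 in WT and 0.574 ± 0.0473 in KO (exact permutation p = 0.50).

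**Figure D5:**
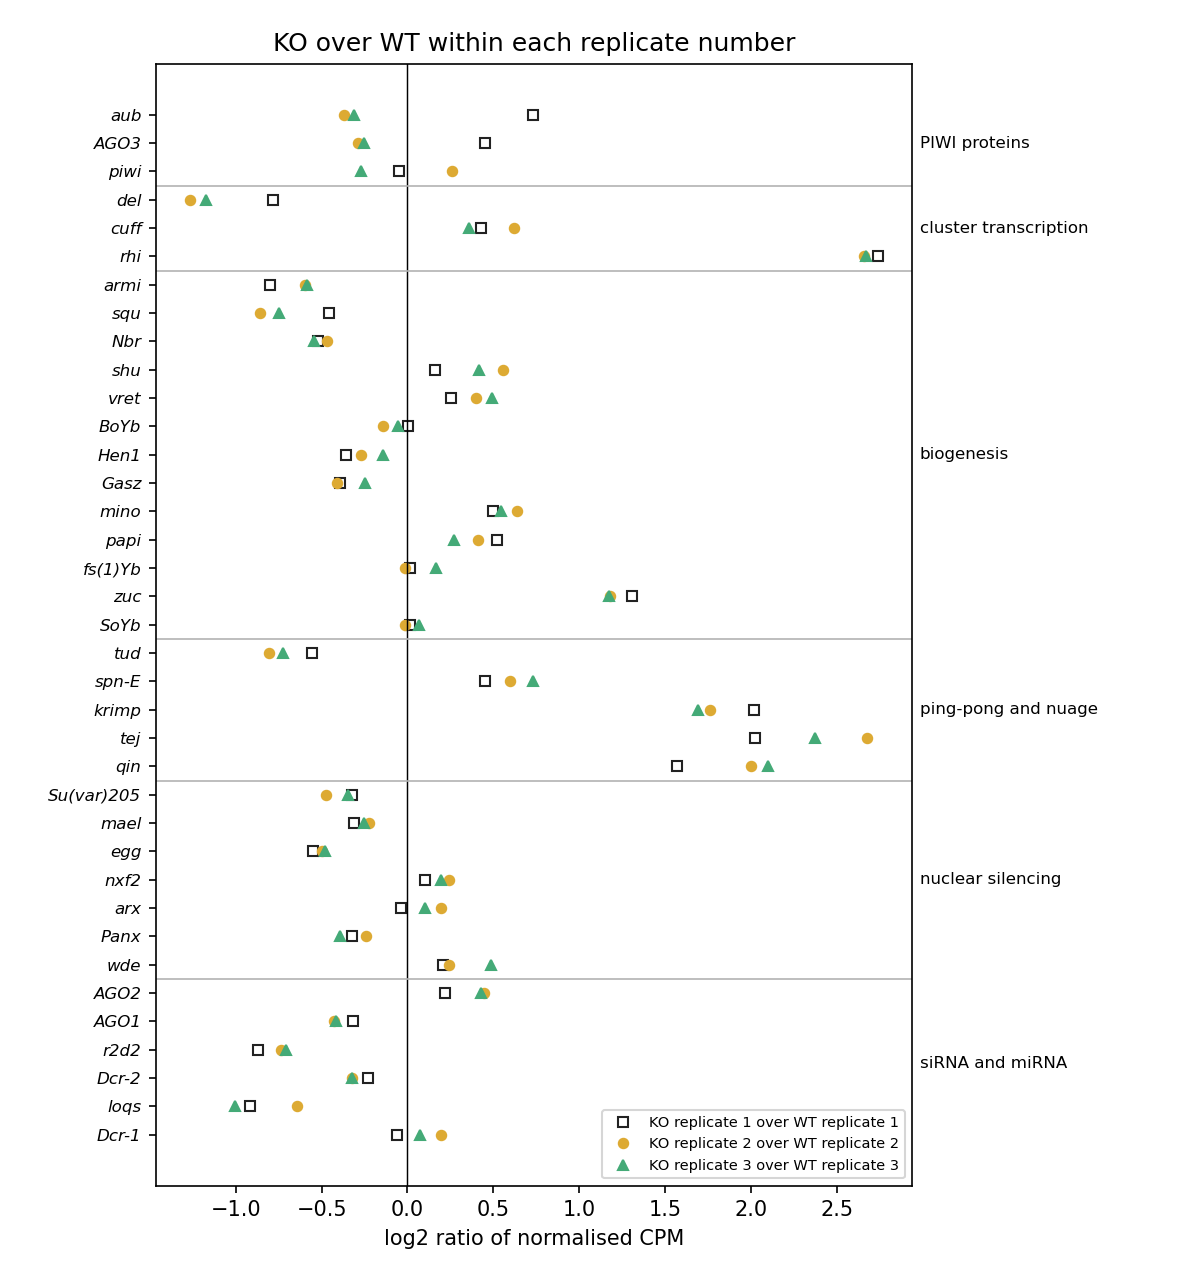
Log2 ratio of KO to WT normalised CPM within each replicate number (squares, number 1; circles, number 2; triangles, number 3) for the 37 tested genes, by role. The 3 ratios lie on one side of 0 for all 27 called genes and for Hen1 and nxf2, which were not called. WT and KO values of these genes do not overlap, so their ratios must share a sign. The ratios of aub and AGO3 are positive for number 1 and negative for numbers 2 and 3.

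By chromosome arm, the 13 tested genes on 2R had 6 calls in each direction and those on 2L, 11 genes, had 2 rises and 6 falls. All tested genes of these arms had median log2 fold changes of -0.10 and -0.01. On 3R 4 of 5 were higher and 0 lower, on an arm whose tested genes had a median of 0.20. Over all genes tested, of any arm, 27.7% were called higher and 26.5% lower. Of the 27 called genes, 20 kept their call and direction in every one of the 16 other settings in which they could be tested, 8 of them higher and 12 lower. rhi, tej, qin, krimp, zuc and del were among them, with log2 fold changes over those settings of 1.9996 to 2.81, 1.88 to 2.48, 1.68 to 2.11, 1.72 to 1.93, 1.009 to 1.24 and -1.27 to -0.70. The 7 others were cuff, vret, papi, Nbr, Panx, wde and AGO2.

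Isoform-weighted transcript length, which RSEM reports and which moves when the mix of a gene's isoforms moves, was called for none of the 18 members tested, against 2.32% of 4219 genes (limma, Benjamini-Hochberg adjusted p under 0.05). The largest difference was that of loqs, at 1660, 1641 and 1614 bases in WT and 1798, 1674 and 1588 bases in KO, which overlap (log2 difference 0.04, adjusted p = 0.817). The lowest adjusted p was that of the HP1a gene, at 1009 ± 1.87 bases in WT and 1001 ± 1.48 bases in KO, not called at an adjusted p of 0.0746. With the replicate number as a block 3 of the 4219 genes were called, in place of 98.

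Other piRNA pathway genes were called in both directions, 8 higher and 5 lower of 21 tested, beside 27.7% and 26.5% of all tested genes. Of the 8, 3 (vas, moon and CG9925) passed the count limit only through the KO libraries, in which they are high, so the count of rises is partly set by that limit. CG10880, named daed in the reference annotation, encodes a mitochondrial partner of Gasz and rose from 8.83 ± 0.120 to 18.4 ± 1.92 CPM (log2 fold change 1.06, adjusted p = 0.000224). Trf2, whose TBP-related product starts cluster transcription together with Moonshiner, fell from 1055 ± 48.3 to 666 ± 34.5 CPM (log2 fold change -0.66, adjusted p = 0.000224). Hel25E, encoding the helicase UAP56 that accompanies cluster transcripts, fell from 404 ± 6.59 to 305 ± 2.42 CPM (-0.41), and CtBP rose from 542 ± 16.4 to 738 ± 23.9 CPM (0.45). The rise of CtBP was close to its segment median of 0.48. Chosen after their values were seen and given as levels only, vas, the nuage helicase gene Vasa, stood at 0.164 ± 0.0571 CPM in WT against 1.74 ± 0.853 in KO, and moon, encoding Moonshiner, at 0.385 ± 0.161 against 1.08 ± 0.198.

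Chromatin and SUMO cofactors of silencing gave 2 rises and 8 falls of 17, with a median log2 fold change of -0.18. Over all genes tested 27.7% were called higher and 26.5% lower. G9a, an H3K9 methyltransferase gene on X, fell from 148 ± 0.770 to 40.9 ± 3.05 CPM (log2 fold change -1.86, adjusted p = 3.35e-06), in a segment with a median of -0.61. HP1b fell from 116 ± 4.94 to 80.5 ± 2.98 CPM (-0.52) and Su(var)2-10, a SUMO ligase gene that links the Panoramix complex to Eggless, from 212 ± 13.7 to 154 ± 6.81 CPM (-0.45). Aos1, a subunit gene of the SUMO-activating enzyme, rose from 72.6 ± 2.25 to 129 ± 7.09 CPM (0.83).

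Other siRNA and miRNA pathway genes gave 8 rises and 7 falls of 23, with a median log2 fold change of 0.07. The shares over all genes tested were 27.7% higher and 26.5% lower. Falls included the deadenylase genes PAN2, from 221 ± 11.5 to 140.0 ± 5.92 CPM, and Not1, from 1268 ± 41.6 to 814 ± 20.2 CPM, and gw, the AGO1 partner GW182, from 422 ± 4.52 to 315 ± 10.1 CPM. The fall of gw (log2 fold change -0.42) was close to its segment median of -0.44. Hsc70-4, a chaperone gene used in loading Argonautes, rose from 2988 ± 109 to 4202 ± 154 CPM.

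piRNA source and target loci carried almost no reads. The long RNA of the flamenco cluster had 12 counts over the WT libraries and 6 over the KO libraries. Stellate genes are silenced by piRNAs in the male germline. They were listed with CkIIbeta2 and Ssl, which lie on 2R and are not Stellate copies. These 15 genes had 36 and 44 counts in all, with 6 of them at 0 throughout. None of these 16 loci was tested, and poly(A) libraries counted per annotated gene hold no transposon entries here, so silencing itself was not measured.

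Beside the rises of rhi, tej, qin, krimp and zuc, markers of the germline also moved. Of 15 listed, 11 were tested, 8 were higher and 1 lower, and 3 of the 8 (zpg, nos and bru1) passed the count limit only through the KO libraries. Over all genes tested 27.7% were called higher and 26.5% lower. The summed level of the list ran from 229.6 to 257 CPM in WT and from 432 to 474 CPM in KO. bam, which drives germline differentiation, rose from 3.11 ± 0.224 to 52.3 ± 3.14 CPM, its partner bgcn from 33.6 ± 0.0578 to 145 ± 12.4 CPM, and the translational regulator gene orb from 4.13 ± 0.206 to 26.5 ± 17.1 CPM. The innexin gene zpg had 0 counts over the WT libraries and 2676 over the KO libraries. With the WT group set to 3 counts, that is at least 1057-fold higher. stau fell from 157 ± 18.9 to 91.0 ± 13.1 CPM. Other germline genes were at or near 0 in both groups: pgc at 0 in all libraries, and osk, otu and ovo with 1, 4 and 11 counts over the WT libraries and 4, 2 and 17 over the KO libraries. Ovarian soma markers gave 1 rise and 1 fall of the 4 tested among 11 listed. Their summed level, 667 to 729 CPM in WT and 587 to 604 CPM in KO, was mostly that of zfh1, a gene that blood cells also express, which fell from 648 ± 28.9 to 528 ± 7.38 CPM. The Hedgehog receptor gene ptc moved against that sum, rising from 5.61 ± 2.96 to 28.3 ± 4.32 CPM, and bond was at 0. The part of these markers in the results was not tested.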

How the data were processed

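Poly(A) RNA of Kc cells was sequenced in 3 WT and 3 KO libraries. Per the submitters' processing notes, CASAVA 1.7, cutadapt, STAR 2.7.0f and RSEM 1.3.0 were used with dm6. The sources used here do not give annotation release, options or strand use. The deposited files hold RSEM estimates per gene: an expected count, a TPM and a length weighted by isoform abundance in bases, another unit that the authors deposited per the file headers. Expected counts, which share out reads matching several genes, were rounded to whole numbers. The test was that of edgeR 4.0.16 under R 4.3.3 (TMM scaling; genes kept by filterByExpr, minimum count 10; the quasi-likelihood test; Benjamini-Hochberg over 8405 genes). limma 3.58.1 tested log2 length, and DESeq2 1.42.0 was an alternative. Coordinates, overlaps and 1 Mb segments (1000000 bases, at least 20 tested genes, otherwise the arm) came from the Ensembl annotation with dm6 coordinates, in which 17587 of 17714 genes were found. An offset setting subtracts a segment's median from KO. That median comes from these same libraries and includes the gene itself. It is taken as fixed, so its own uncertainty does not enter the adjusted p-values of that setting.

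The 38 genes and all lists were chosen with earlier results of these data known. Every one of the 38 is described, and up to 4 called genes of lowest adjusted p were named per pathway list, apart from vas and moon. Marker lists are given by counts, with single genes chosen after their values were seen. A wrong identifier was dropped from each of 2 lists.

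Replicate numbers come from the sample titles, and the labels do not say that they pair libraries. Across genes, the residuals of WT and KO libraries with the same number had r of 0.49, 0.13 and 0.34, each over 0.1, so the numbers were taken as pairs in an alternative fit with a replicate block. The residuals of WT replicate 2 and KO replicate 3 had r of 0.32, and those of WT replicate 3 and KO replicate 2 had 0.13. These values are close to those of the same numbers, so they cannot show whether numbers 2 and 3 are pairs. The main edgeR fit was tested on simulated data. The segment offset, the replicate block, DESeq2, the length fit and the permutation test were not tested in this way.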

Additional observations from a re-analysis of the deposited data

How the results depend on the processing

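Counts of genes and of members called higher or lower stayed within 1.5 times their values under every setting tried. Members called higher numbered 13, and 14 with the replicate block, 12 with DESeq2, 12 with segment medians as an offset and 15 without both number-1 libraries. The lowest number was 11, without WT replicate 3 and with limma on either TPM scale. Members called lower numbered 14, and 15 with the block and 17 without both number-1 libraries. Apart from Hen1 and nxf2, the block changed no other call of a member. The count of genes called for isoform-weighted length, 98, became 3 with the replicate block and ranged from 6 to 56 with single libraries left out. The causes of these changes were not tested.

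Directions turned for genes that were not called. Without both number-1 libraries aub stood at -0.35, with segment medians as an offset at -0.074, and with limma on log2(TPM + 1) or log2(TPM + 0.1) at -0.0056 and -0.0061. AGO3 stood at 0.0026 with a minimum count of 30 and at 0.014 with WT replicates 2 and 3 summed. SoYb stood at -0.018 without a count filter, at -0.20 with segment medians and at -0.00067 and -0.00073 on the 2 TPM scales. Segment medians also turned BoYb to 0.018, nxf2 to -0.015 and Dcr-1 to -0.27. With single libraries left out, the log2 fold change ranged from -0.12 to 0.058 for piwi, -0.25 to 0.19 for aub, -0.19 to 0.064 for AGO3, -0.028 to 0.059 for SoYb and -0.013 to 0.13 for fs(1)Yb, and the length difference of loqs from -0.0066 to 0.083. Depth limits the weakly expressed genes: tj could not be tested, and rhi and qin had 13 to 25 counts per WT library. Promoter sequences were not examined.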
